A study of Tupaia belangeri with 6 samples.

Results

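Voltage-gated calcium channels were followed in nuclei of the tree shrew (Tupaia belangeri) hippocampus through 10 subunit genes, which were picked by gene symbol from the 83605 features of the count matrices. Of the 10, 8 encode pore-forming α1 subunits (CACNA1A, CACNA1B, CACNA1C, CACNA1D, CACNA1E, CACNA1G, CACNA1H and CACNA1I) and 2 encode auxiliary α2δ subunits (CACNA2D1 and CACNA2D3). Each symbol matched a single feature, for instance TSDBGID.18009 for CACNA1A and TSDBGID.16737 for CACNA2D3. Features named by a symbol followed by "li" and a number, 1 for CACNA1C and 1 for CACNA1G, are not part of the values below. Single-nucleus RNA-seq had been run on 3 ALP and 3 control libraries, with the animals aged 5 to 6 years. ALP stands for Alzheimer's-like pathology, here cognitive decline that arose with natural ageing and was recognised by performance in a pipeline maze. The study also reports more Aβ deposits, amyloid precursor protein and phosphorylated Tau in the hippocampus of ALP animals. It further reports a smaller hippocampus by MRI, lower glucose uptake by PET and differences in other behavioural tests. The controls were healthy animals of matching age, neither group carried a transgene or was treated to bring on the state, and the sources used here do not give the sex of each library. The study's methods describe imaging under isoflurane, a glucose tracer for PET scans and perfusion under anaesthesia before the tissue was taken. The libraries are titled AD 1 to 3 and Normal 1 to 3 and are called ALP 1 to 3 and Control 1 to 3 below.

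Voltage-gated calcium channels open when the membrane depolarises and let calcium into the cell. The α1 subunit forms the pore and sets the channel type. CACNA1A (P/Q-type) and CACNA1B (N-type) channels drive transmitter release at presynaptic terminals, CACNA1C and CACNA1D (L-type) channels couple depolarisation to gene transcription in neurons and to contraction in muscle, CACNA1E forms R-type channels, and CACNA1G, CACNA1H and CACNA1I form the T-type channels that open near the resting potential and support burst firing. The α2δ subunits help bring the channels to the cell surface and to synapses, and the α2δ subunit encoded by CACNA2D1 is a binding site of gabapentin.

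After filtering, 28234 nuclei remained (14388 control and 13846 ALP), between 1614 in Control 2 and 7023 in Control 1. The libraries held 4159545 to 15413299 unique molecular identifiers (UMIs, counted RNA molecules), with a median of 1502.5 to 2187.5 per nucleus. The names of the classes were rebuilt from marker genes and may differ from those of the study: 24772 nuclei fell into 11 classes, 73 were Mural-like and 3389 in no named class. "Pyra-like" covers pyramidal markers, "Gran-like" granule cells of the dentate gyrus, "InN-like" inhibitory neurons, and "Other excitatory" 2 clusters without 3 markers of a class in which at least 30% of nuclei had a CAMK2A and 20% an SLC17A7 UMI. A shallow cluster of 1829 nuclei (median 730 UMIs) with excitatory markers stayed in no class, and 1084 of its nuclei were from Control 3. Libraries differed in makeup: neuronal classes took 27.2%, 32.7% and 17.8% of the nuclei in Control 1 to 3 and 37.6%, 32.4% and 28.5% in ALP 1 to 3, without the nuclei of that shallow cluster. Control 3 held only 69 Pyra-like nuclei and had a named class for 74.1% of its nuclei, the lowest share. Any 2 libraries shared 4 to 18 cell barcodes, at most 0.465% of the smaller library. Without the upper limit on genes per nucleus, 37583 nuclei with 158125103 UMIs remained, against 62554381 UMIs with it. Clustered anew, they held 4334 InN-like, 3687 Other excitatory and 3395 Pyra-like nuclei, against 2431, 926 and 1867 with the limit. Gran-like nuclei were 2712 against 2741. Levels and shares of neuronal classes below come from nuclei with fewer than 2500 genes.

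Levels are given as CPM, the UMIs of a gene per 1000000 UMIs of all nuclei of that class in that library, as mean ± SD over the 6 libraries. Fold differences come from edgeR's quasi-likelihood test on those summed UMIs with TMM scaling, and a difference was called at a Benjamini-Hochberg adjusted p under 0.05 over all features tested and a log2 fold beyond 0.25. SE is the size of the log2 fold divided by the square root of the F statistic of that test. The calcium channel genes had been kept out of the genes that defined the clusters. Between any 2 classes 10.7% to 66.4% of the 13332 features tested were called, and 44.0% over all class pairs together. CPM compares 1 gene across classes. It is not per transcript length and gives no order between genes.

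CACNA1A, the P/Q-type pore, had nearly the same level in the Other excitatory (403 ± 95.6 CPM), InN-like (400.4 ± 92.1) and Micro-like nuclei (371 ± 101, SD, n = 6). In the Other excitatory class the lowest library was at 279, the median at 380.1 and the highest at 545 CPM. The Pyra-like (326 ± 135), Epen-like (298 ± 173), Gran-like (296), Fibro-like (268) and OPC-like (264) nuclei followed, and Astro-like (88.0), Endo-like (69.8) and Oligo-like nuclei (58.9) were lowest. Other excitatory and InN-like nuclei, between which 26.1% of features were called, did not differ in the test (log2 difference -0.06, SE 0.15, adjusted p = 0.838). The step from OPC-like down to Astro-like nuclei was called (log2 1.58, SE 0.17, adjusted p = 2.74e-13), and it was the only one of the 10 steps between neighbours in this order that was called both with and without TMM factors. The InN-like level was called higher than the Micro-like level with TMM (log2 0.66, adjusted p = 3.46e-04) and not on the plain CPM scale (0.10, adjusted p = 0.593), an alternative added after seeing the data. TMM factors ran from 0.638 to 2.24 in this fit.

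CACNA1B, the N-type pore, was neuronal. It stood at 231 ± 56.4 CPM in Other excitatory, 231 ± 45.2 in InN-like, 182 ± 56.4 in Pyra-like and 132 ± 33.3 in Gran-like nuclei, against 13.2 to 47.4 CPM in the other 7 classes. The steps from InN-like to Pyra-like (log2 0.35, adjusted p = 0.0163), Pyra-like to Gran-like (0.62, adjusted p = 5.26e-05) and Gran-like to Fibro-like nuclei (2.09, adjusted p = 1.80e-07) were called by edgeR with either scaling, and Other excitatory and InN-like nuclei did not differ (-0.07, adjusted p = 0.751).

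CACNA1C, the CaV1.2 pore of L-type channels, was highest in Gran-like nuclei, at 1034 ± 153 CPM (lowest library 847, median 1013, highest 1225). Next were Other excitatory (665 ± 220), Pyra-like (466 ± 182), Fibro-like (455 ± 384), InN-like (338 ± 45.8), Astro-like (264) and Endo-like nuclei (199). The Gran-like level was above the Other excitatory level by 0.57 on the log2 scale (SE 0.18, edgeR adjusted p = 0.0102, a contrast in which 30.7% of features were called) and above each of the other 9 classes. Without ALP 2 the first of these missed the threshold (0.49, adjusted p = 0.0897), and with DESeq2 likewise (0.50, adjusted p = 0.0602). Fibro-like nuclei, 106 in all, spread from 193 to 1220 CPM, and against the order of the means the test with TMM called them lower than InN-like nuclei (log2 -0.65, SE 0.26, edgeR adjusted p = 0.0396), whereas without TMM factors they were not called (0.25, adjusted p = 0.567). The 73 Mural-like nuclei (pericytes and smooth muscle by their markers) were too few to test: with 116 CACNA1C UMIs of 88286 they stood at 1314 CPM (95% Poisson interval 1086 to 1576, counting error only), and the 2 libraries with enough of them gave 1441 (Control 1) and 1412 CPM (Control 3).

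CACNA1D, the CaV1.3 pore of L-type channels, was highest in InN-like nuclei (377 ± 38.4 CPM, from 322 to 425), followed by Gran-like nuclei (347 ± 28.9). The difference was not called (log2 0.28, SE 0.14, edgeR adjusted p = 0.104, with 42.7% of features called between these classes), but was in 1 of 14 alternatives. Pyra-like (248), Other excitatory (232) and OPC-like nuclei (230.0) were close to each other. The next step, from OPC-like to Epen-like nuclei (92.8), was called (1.67, edgeR adjusted p = 2.19e-07).

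CACNA1E, the R-type pore, separated the excitatory from the inhibitory neurons. It was at 628 ± 60.9 CPM in Pyra-like, 528 ± 48.1 in Other excitatory and 469 ± 62.9 in Gran-like nuclei, with no overlap with InN-like nuclei (97.3 ± 12.2, highest library 113). Pyra-like exceeded InN-like nuclei by 2.72 on the log2 scale (SE 0.17, edgeR adjusted p = 2.69e-24). The difference between Pyra-like and Other excitatory nuclei was not called (0.33, SE 0.16, edgeR adjusted p = 0.212), but was in 1 of 14 alternatives. Epen-like nuclei stood at 138 ± 110, from 50 UMIs.

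The T-type pores were less often counted and each had its own distribution. CACNA1G was at 47.8 ± 12.1 CPM in Pyra-like, 36.3 ± 4.25 in Other excitatory and 19.4 ± 5.23 in InN-like nuclei, and at 6.09 CPM in Gran-like nuclei. Pyra-like nuclei thus had a 9.17-fold higher CACNA1G level than Gran-like nuclei (log2 3.20, SE 0.26, edgeR adjusted p = 9.34e-18). CACNA1H was at 141 ± 31.0 CPM in Gran-like, 139 ± 59.1 in Pyra-like and 108 ± 61.9 in Other excitatory nuclei, and nearly absent from InN-like nuclei (4.97 CPM), a 25.8-fold difference between Gran-like and InN-like nuclei (log2 4.69, SE 0.25, edgeR adjusted p = 1.06e-27). CACNA1I was at 46.6 ± 5.16 CPM in Other excitatory, 40.03 ± 9.21 in Pyra-like, 34.9 ± 5.30 in Gran-like and 17.4 ± 1.77 in InN-like nuclei, and the step from Gran-like to InN-like nuclei was called (log2 0.83, edgeR adjusted p = 4.74e-04). CACNA1G and CACNA1H had 0 UMIs in Epen-like nuclei, which allows up to 8.31 CPM, and CACNA1I had 0 in Fibro-like nuclei, which allows up to 12.8 CPM.

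Of the α2δ genes, CACNA2D1 was highest in Pyra-like nuclei (605 ± 141 CPM, from 467 to 821) and then in Gran-like (475 ± 93.0), OPC-like (400.2 ± 43.6), Other excitatory (359 ± 85.5) and InN-like nuclei (355 ± 76.0). Pyra-like exceeded Gran-like nuclei with TMM (log2 0.50, SE 0.14, edgeR adjusted p = 4.27e-03, with 28.1% of features called in this contrast) but not without it (0.33, adjusted p = 0.0555) and not without ALP 2 (0.40, adjusted p = 0.0842). OPC-like nuclei, whose class is the progenitor of oligodendrocytes, were at the level of Other excitatory neurons (log2 difference 0.00, SE 0.15). CACNA2D3 was at 614 ± 64.1 CPM in Pyra-like and 566 ± 244 in Other excitatory nuclei, which were not called different (0.28, SE 0.20, edgeR adjusted p = 0.467), and was lower in InN-like (353 ± 58.3) and Gran-like nuclei (338 ± 79.1). It fell by a further called step to OPC-like nuclei (124 ± 20.6), where Gran-like exceeded OPC-like nuclei by 1.53 (edgeR adjusted p = 2.72e-09).

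In all, 30 of the 100 steps between neighbouring classes in the 10 orders were called. Of these, 1 (the CACNA1C step from Fibro-like to InN-like nuclei) went against the order of the means. Over all pairs of classes together, 44.0% of the tests of all features were called. The steps were taken from the order of means in the same data. The count of called steps therefore does not set the subunit genes apart from other features. Without TMM factors 20 of the 100 steps were called, and 18 were called with both scalings. With TMM the first step, from the highest class to the next, was called for CACNA1C and CACNA2D1 only.

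**Figure D1:**
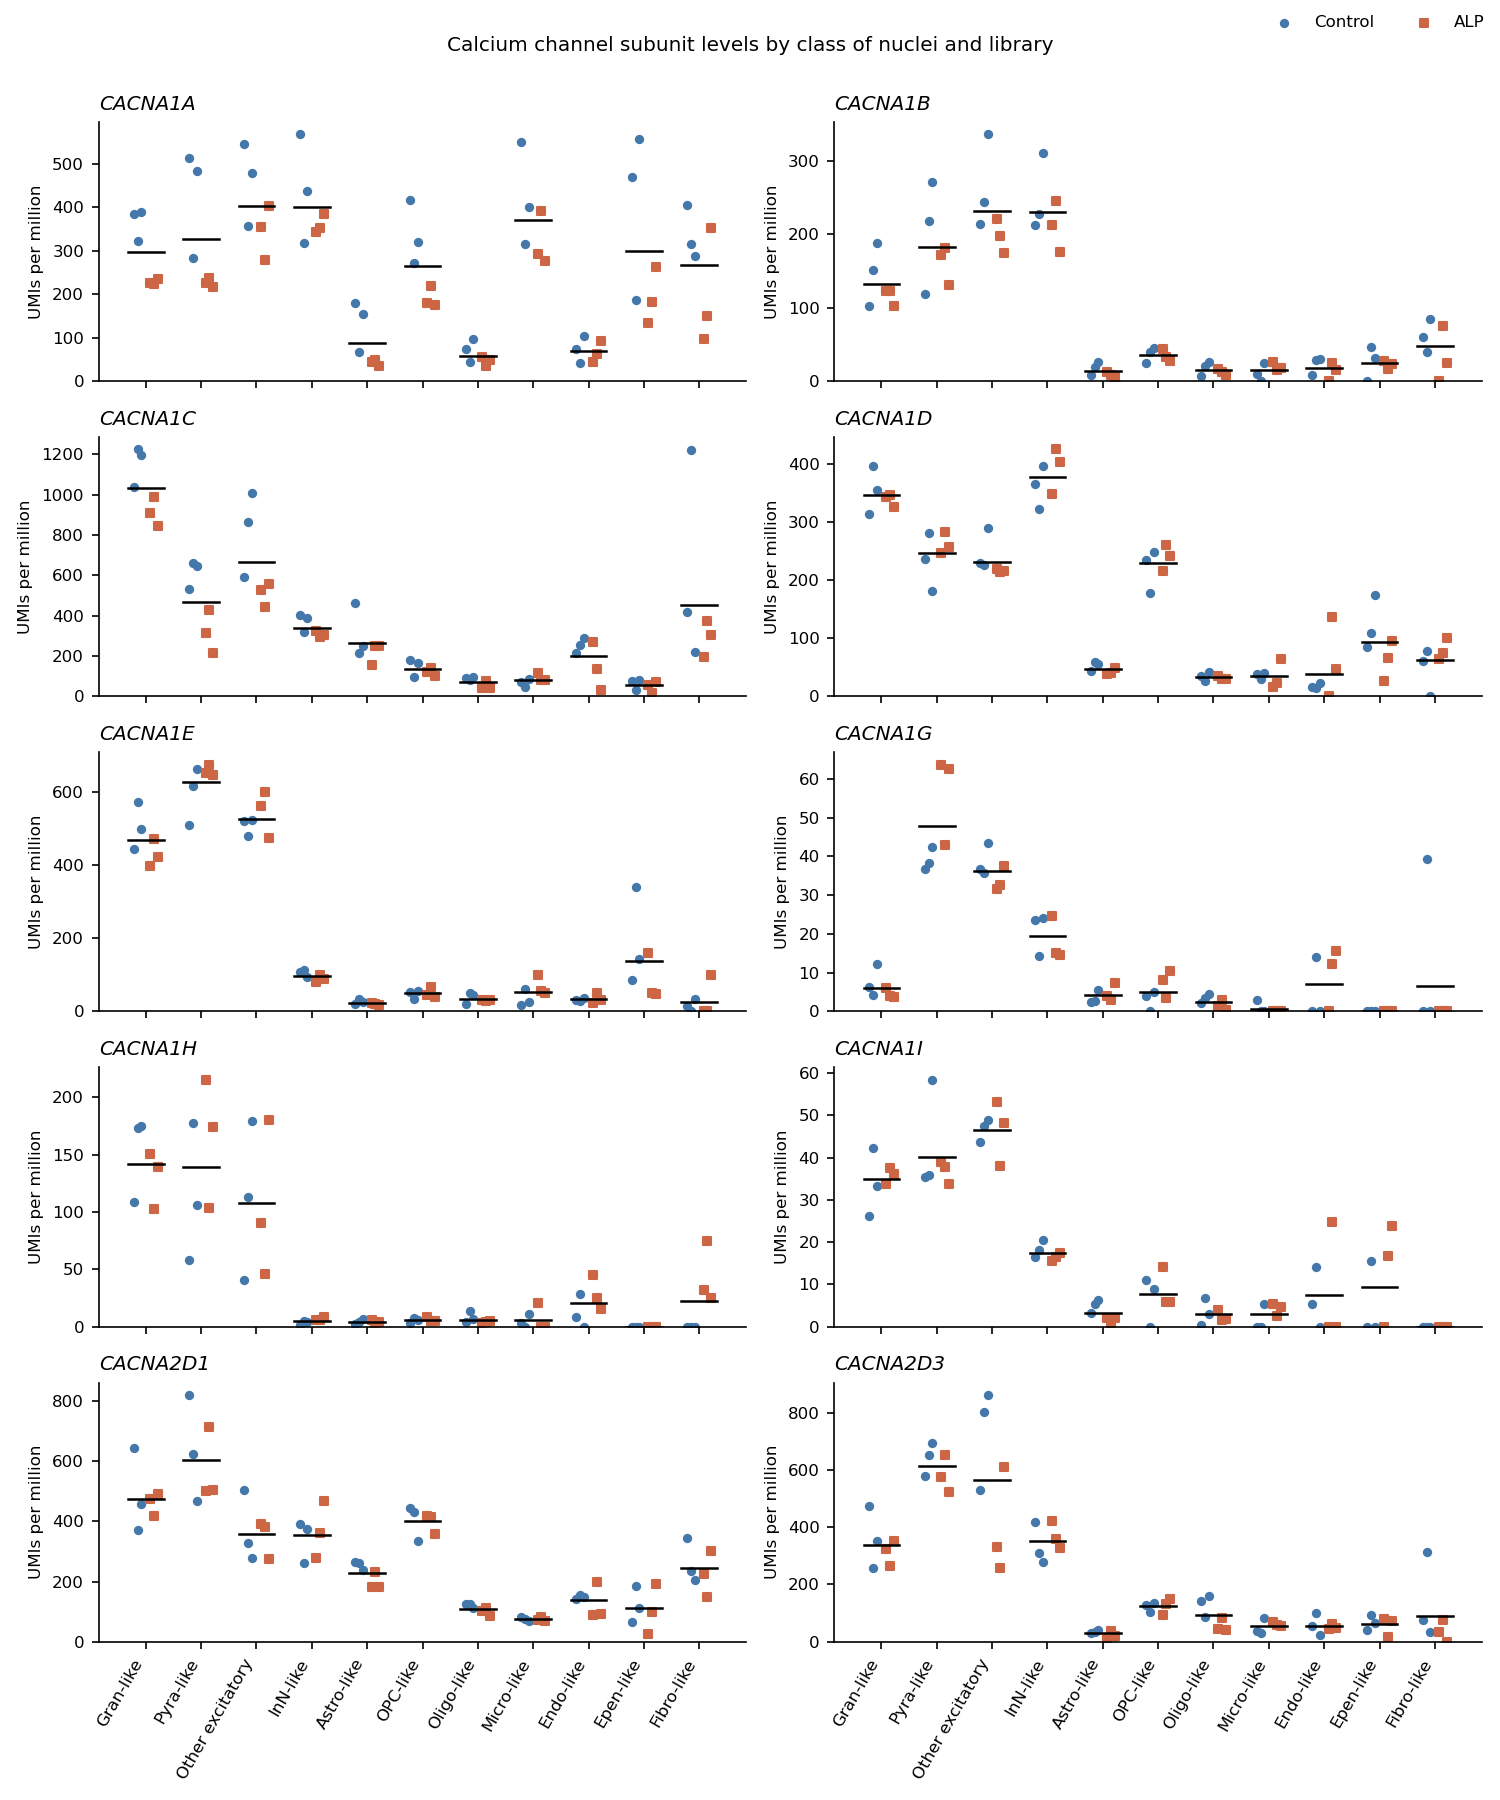
Level of each of the 10 subunit genes (vertical axes, CPM, UMIs per 1000000 of the class) in 11 classes of nuclei (horizontal axes). Each point is 1 library, with control and ALP libraries in different colours, and the short lines are means over the 6 libraries. CACNA1C peaks in Gran-like nuclei (mean 1034 CPM), CACNA1E falls from 628 CPM in Pyra-like to 97.3 in InN-like nuclei, and CACNA1A in Micro-like nuclei (371 CPM) lies near the neuronal classes.

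Nuclei outside the neuronal classes also carried neuronal RNA, so their subunit levels were set beside those of 7 neuron genes (SNAP25, SYT1, RBFOX3, SLC17A7, CAMK2A, NEUROD2 and GAD1), each as a percentage of its highest neuronal class. In Micro-like nuclei the neuron genes were at 11.0% to 25.6% (median 16.2%). CACNA1A was at 92.1% there, and the other 9 subunit genes were at 1.06% to 12.5%. In OPC-like nuclei the neuron genes were at 3.97% to 19.5%, while CACNA2D1 was at 66.2%, CACNA1A at 65.5%, CACNA1D at 60.9% and CACNA2D3 at 20.2%. In Astro-like nuclei they were at 1.31% to 17.04%, with CACNA2D1 at 37.5%, CACNA1C at 25.5% and CACNA1A at 21.8% above that range and CACNA1D (12.6%) within it. Taken by group, CACNA1A was above the range in control Astro-like nuclei (29.03% against 2.77% to 16.8%) and within it in ALP (12.3% against 0% to 17.2%). In Oligo-like nuclei (3.62% to 17.8%) CACNA2D1 at 18.1% was just above the range, and CACNA2D3 (15.3%) and CACNA1A (14.6%) were inside it. By group, against Pyra-like nuclei of the same group, CACNA2D3 was above the range in controls (20.3% against 3.31% to 18.9%). In controls, however, Other excitatory nuclei had more CACNA2D3 (731 CPM) than Pyra-like nuclei (643). Against Other excitatory nuclei the control percentage falls within the range. In ALP, against Pyra-like nuclei, CACNA2D3 was within the range (9.72% against 3.76% to 17.6%). In Endo-like nuclei the neuron genes were at 0% to 65.4% (median 14.98%), with SLC17A7, SNAP25 (37.5%) and CAMK2A (36.0%) highest. CACNA2D1 at 22.7%, CACNA1C at 19.3% and CACNA1A at 17.3% were within that range. In Fibro-like nuclei they were at 0% to 20.2%, with CACNA1A at 66.5%, CACNA1C at 44.04% and CACNA2D1 at 40.3% above that range. In Epen-like nuclei the neuron genes had a median of 19.7%, and CACNA1A was at 74.0%. GAD1 was highest there at 32.5%, but from only 2.58 CPM, below the 8.31 CPM that 0 UMIs allow in this class. Its highest neuronal level, in InN-like nuclei, was itself only 7.94 CPM, so percentages of GAD1 are imprecise in every class.

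The share of nuclei with at least 1 UMI was compared after each nucleus had been thinned to 1000 UMIs, which left out 2798 shallower nuclei (11.3% of the 24772, and 45.7% of Micro-like nuclei). CACNA1C was found in 60.7% ± 4.99 of Gran-like nuclei (86.4% unthinned, median depth 2992 UMIs) against 8.33% ± 3.59 of Micro-like nuclei (7.86% unthinned, 1027 UMIs). CACNA1A was found in 30.7% ± 4.42 of InN-like nuclei (68.7% unthinned, 4260 UMIs) and in 27.1% ± 10.8 of Micro-like nuclei (35.5% unthinned), which overlap within their SDs. CACNA2D3 was found in 42.9% ± 2.37 of Pyra-like nuclei (80.0% unthinned, 3819 UMIs) against 4.47% ± 2.09 of Micro-like nuclei (6.47% unthinned). CACNA1H was in 12.8% ± 2.20 of Gran-like nuclei and in 0.579% ± 0.228 of InN-like nuclei, although the InN-like nuclei were the deeper of the pair.

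Among the inhibitory neurons, the 821 MGE-like nuclei (medial ganglionic eminence, clusters led by SST or by NXPH1 and TLL1) were compared with the 1176 CGE-like nuclei (caudal ganglionic eminence, clusters led by VIP, by CNR1 or by KIT and RELN), with the library as a block. The α2δ genes went in opposite directions. CACNA2D1 was lower in MGE-like nuclei, at 72.3 ± 16.01 CPM against 263 ± 47.4 in CGE-like nuclei (log2 -1.94, SE 0.13, edgeR adjusted p = 2.09e-10, lower in 6 of 6 libraries), and CACNA2D3 was higher, at 605 ± 186 against 302 ± 23.2 (log2 0.88, SE 0.14, edgeR adjusted p = 3.51e-05, higher in 6 of 6). In these 2 genes the MGE-like and CGE-like libraries did not overlap: CACNA2D1 ran from 44.3 to 89.1 and from 215 to 343, CACNA2D3 from 371 to 883 and from 273 to 335. The background is broad, since 19.6% of the 7781 features tested were called between the subclasses, 9.27% higher and 10.3% lower in MGE-like nuclei.

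Of the presynaptic pores, CACNA1A was higher in MGE-like nuclei (436 ± 85.8 against 267 ± 70.3 CPM, log2 0.65, SE 0.10, edgeR adjusted p = 2.16e-05) and CACNA1B lower (191 ± 49.5 against 270 ± 56.1, log2 -0.57, SE 0.09, edgeR adjusted p = 7.18e-05). The T-type gene CACNA1I was higher in MGE-like nuclei (26.5 ± 5.23 against 13.8 ± 1.77 CPM, log2 0.85, edgeR adjusted p = 5.92e-03), although DESeq2 did not call it (adjusted p = 0.112). CACNA1D was called lower by a small margin (340 ± 30.5 against 388 ± 43.9, log2 -0.26, edgeR adjusted p = 0.0395). That call was lost in 8 of 13 alternatives, among them DESeq2 (adjusted p = 0.293) and leaving out Control 1 (0.0696), Control 2 (0.0610), Control 3 (0.111), ALP 1 (0.0859) or ALP 2 (0.142). CACNA1C (log2 -0.24, adjusted p = 0.117), CACNA1E (0.05) and CACNA1G (0.06) were not called, and CACNA1H was too low to test.

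The single interneuron clusters were further apart than the subclasses. In pooled counts CACNA2D1 was at 1080 CPM in the 434 nuclei of a cluster led by LAMP5 (from 936 to 1284 in the 6 libraries), at 716 in the KIT and RELN cluster, at 208 to 226 in the VIP and CNR1 clusters, and at 54.8 in the SST cluster (42.5 to 73.9). CACNA2D3 had the reverse order at its ends, with 1056 CPM in the SST cluster (726 to 1238) and 55.0 in the LAMP5 cluster (26.9 to 73.3), but the second MGE-like cluster, led by NXPH1 and TLL1, was at 136 and so below both the VIP (323) and CNR1 (311) clusters. The LAMP5 cluster, which belonged to neither subclass here, also had the highest CACNA1A level of the 6 (672 CPM, against 193 in the CNR1 cluster), with Control 1 at 1258 CPM and the other libraries at 521 to 610.3. These are pooled values without a test.

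**Figure D2:**
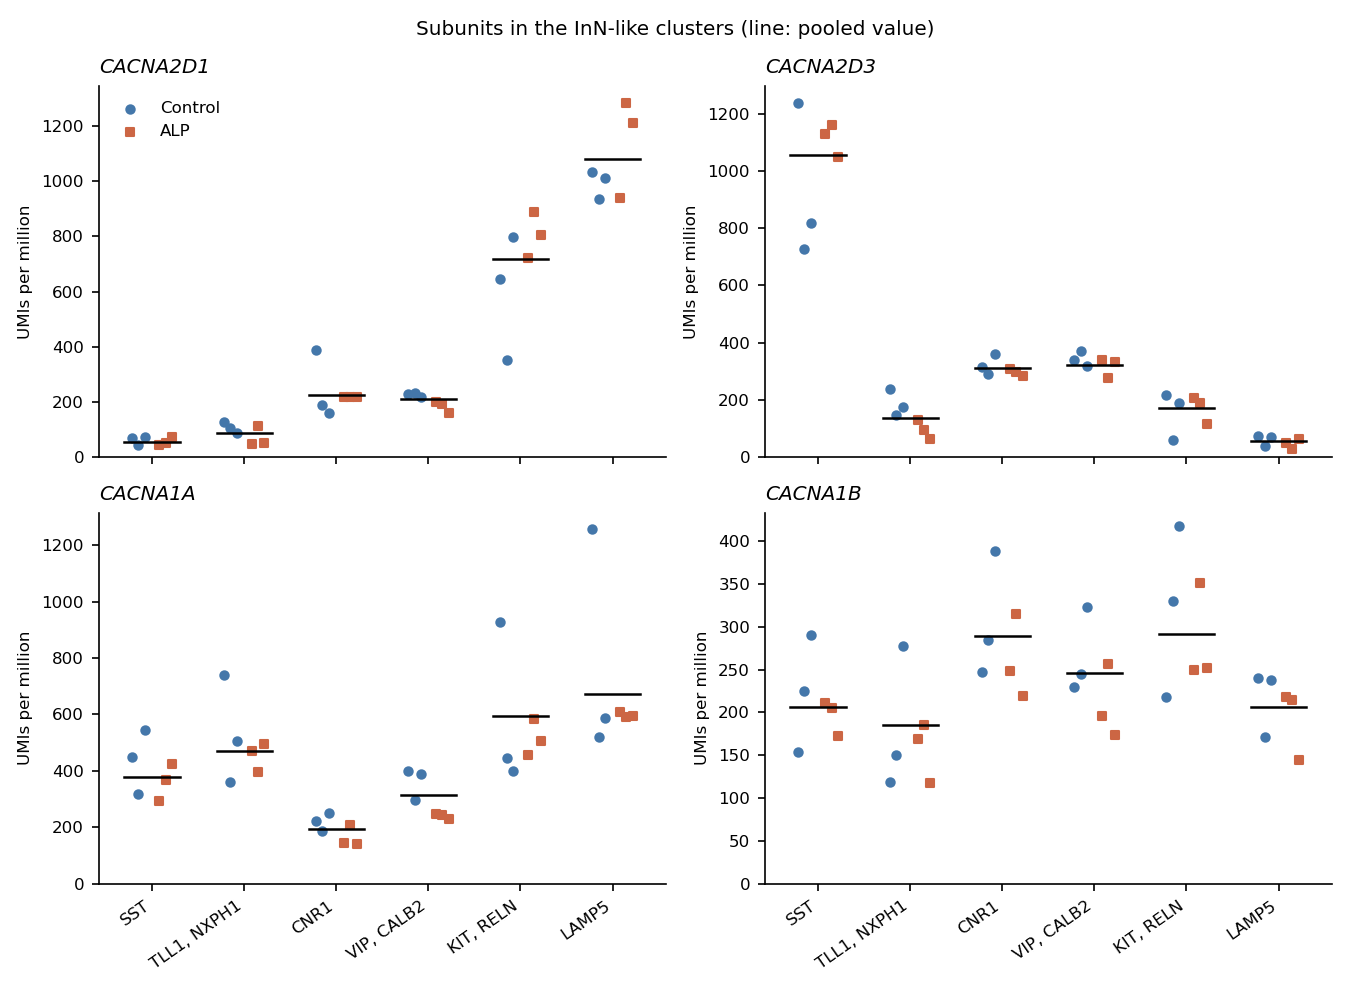
Levels of CACNA2D1, CACNA2D3, CACNA1A and CACNA1B (vertical axes, CPM) in the 6 InN-like clusters (horizontal axes), each labelled by genes that lead it. Each point is 1 library, coloured by group, and the short lines are values pooled over the libraries. CACNA2D1 was highest in the LAMP5 cluster (1080 CPM pooled) and lowest in the SST cluster (54.8), and CACNA2D3 was highest in the SST cluster (1056) and lowest in the LAMP5 cluster (55.0).

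Excitatory clusters differed as well. The Other excitatory class joined clusters that were far apart. Of the 164 Control 3 nuclei in this class 163 were in 1 cluster. CACNA2D3 was at 107 CPM in a cluster led by HS3ST4 and COL8A1 and at 961 in the other one, and CACNA1H at 16.2 and 209. In Pyra-like nuclei CACNA1C ran from 225 CPM in a cluster held mostly by ALP libraries to 754 in one held mostly by Control 1. The part of this uneven makeup in the comparisons of ALP with control was not tested.

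The comparison of ALP with control asks whether subunit expression within a class changed with the Alzheimer's-like state. In the 11 classes, 71 of the 110 pairs of gene and class passed the filter on low counts, and 2 were called, both lower in ALP: CACNA1A in OPC-like and CACNA2D3 in Oligo-like nuclei. Over all features and classes 1.11% of 80232 tests were called, so that 2 of 71 is not far from the background. A further 9 pairs had an unadjusted p under 0.05 without being called (15.5% of the pairs with the 2 included, against 16.6% of all tests), 9 of the 11 lower and 2 higher in ALP. Libraries of the groups did not overlap in 12 tested pairs with ALP lower (13.7% of all tests) and in 1 with ALP higher (7.07%). In the remaining 55 pairs log2 folds ran from -1.11 to 0.87 and the smallest edgeR adjusted p was 0.282. The labels say no more than that the samples are separate, so the p-values measure the spread between these samples. An exact permutation test of 3 against 3 cannot go below 0.1. In OPC-like nuclei the median depth was 1928.5 to 2202 UMIs per nucleus in control and 1482 to 1747 in ALP libraries. It was 1414 to 1632 against 1171 to 1322 in Oligo-like and 1998 to 2260 against 1554 to 1744 in Astro-like nuclei. Gran-like nuclei were at 3284.5 to 3787 against 2452 to 2700. Micro-like, Endo-like and Fibro-like nuclei were also shallower in ALP without overlap, and Other excitatory nuclei deeper. The part of depth was not tested.

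CACNA1A had fitted folds below 0 in each class tested, and 1 of them was called. In OPC-like nuclei it was at 417, 272 and 320 CPM in Control 1 to 3 and at 181, 220 and 174 in ALP 1 to 3. All 3 ALP values were below all 3 control values, a 1.72-fold decrease (log2 -0.78, SE 0.17, edgeR adjusted p = 0.0447). In this class 1.19% of 8798 features were called lower, and 10.2% were lower without overlap. The call rested on small margins, since the adjusted p was 0.0881 without Control 1, 0.113 without Control 3, 0.198 without ALP 1, 0.0628 without ALP 2 and 0.280 without ALP 3, 0.0605 without the upper limit on genes per nucleus and 0.0547 without marked doublets. DESeq2 called it (adjusted p = 0.0191). Thinned to 1000 UMIs, 27.5% ± 5.30 of control and 16.7% ± 2.61 of ALP nuclei had a CACNA1A UMI (n = 3 each). Summed markers of OPCs overlapped between the groups (10639 to 14109 against 11078 to 11686 CPM), those of ependymal cells were lower in ALP (125 to 140 against 93.7 to 102) and those of pyramidal neurons higher (74.9 to 89.7 against 90.2 to 130). Their part in the result was not tested.

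Its largest fitted difference was in Astro-like nuclei, at 179, 67.1 and 154 CPM in the controls and 43.7, 48.6 and 35.0 in ALP. Control 2 lay near the ALP libraries and the other controls far above them, and the groups did not overlap. The 2.88-fold difference (log2 -1.53, SE 0.31) missed the threshold in edgeR (adjusted p = 0.0652), where 0.0493% of 10152 features were called lower and 15.0% were lower without overlap. It was called by DESeq2 (adjusted p = 2.40e-03), without the filter on low counts (3.53e-06), without TMM factors (0.0395) and without Control 2 (log2 -1.78, adjusted p = 9.05e-03). Without TMM factors 124 features were called lower and 24 higher in this class, against 5 and 10 with them. The shares called in the other settings are not given here. The main Astro-like cluster had a mean of 137 CPM in the controls and 41.9 in ALP, and the smaller GFAP-led cluster 70.6 and 52.4. The share of thinned nuclei with a CACNA1A UMI was 12.02% ± 4.39 in controls and 4.27% ± 0.512 in ALP, the latter close to the 4.31% of ALP Oligo-like nuclei. Summed astrocyte markers were lower in the controls (4300 to 5073 against 5200 to 5580 CPM in ALP), markers of inhibitory neurons were higher in them (117 to 146 against 77.3 to 109), as were endothelial markers (49.7 to 63.3 against 22.7 to 38.6), ependymal markers were lower in them (314 to 383 against 396 to 632), and the part of these in the result was not tested.

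Gran-like nuclei had 384, 321 and 390.0 CPM of CACNA1A in the controls and 226, 223 and 234 in ALP. The groups did not overlap and the ALP libraries were nearly equal (log2 -0.63, SE 0.15, edgeR adjusted p = 0.0653, with 1.04% of 10326 features called lower). The pair was called at the lower clustering resolution (0.0493), without TMM factors (0.0413) and without Control 2 (0.0355). Without TMM factors 189 features were called lower and 30 higher in this class, against 107 and 27 with them. The shares called in the other settings are not given here. Oligodendrocyte markers in these nuclei were higher in ALP (203 to 560 CPM in the controls against 636 to 852), those of ependymal cells (148 to 155 against 99.99 to 118) and fibroblasts (3.03 to 4.22 against 1.99 to 2.21) were lower, and their part was not tested.

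Pyra-like nuclei had 513, 283 and 483 CPM of CACNA1A in the controls and 227, 237 and 216 in ALP (log2 -0.63, SE 0.23, unadjusted p = 0.0211 and adjusted p = 0.264 in edgeR). Without Control 3, with its 69 Pyra-like nuclei, the log2 fold was -0.55. In these nuclei the summed markers of astrocytes (81.2 to 186 CPM in the controls against 60.3 to 78.3 in ALP), endothelium (62.4 to 109.7 against 47.99 to 60.7), microglia (29.3 to 58.4 against 16.1 to 27.6) and ependymal cells (72.1 to 106 against 60.2 to 68.96) were lower in ALP without overlap, and their part in any difference of Pyra-like nuclei was not tested. Epen-like nuclei (468, 186 and 557 against 134, 183 and 262 CPM, log2 -1.08, edgeR unadjusted p = 0.0235, 118 UMIs in all) and Oligo-like nuclei (75.0, 43.8 and 96.5 against 54.8, 34.8 and 48.1, log2 -0.65, edgeR unadjusted p = 0.0278) overlapped between the groups. The fitted fold of CACNA1A was below 0 in each of the 10 classes where it was tested, from -1.53 in Astro-like to -0.13 in InN-like nuclei. Of the 228 features tested in all of these 10 classes, 11 (4.82%) were below 0 in every one.

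**Figure D3:**
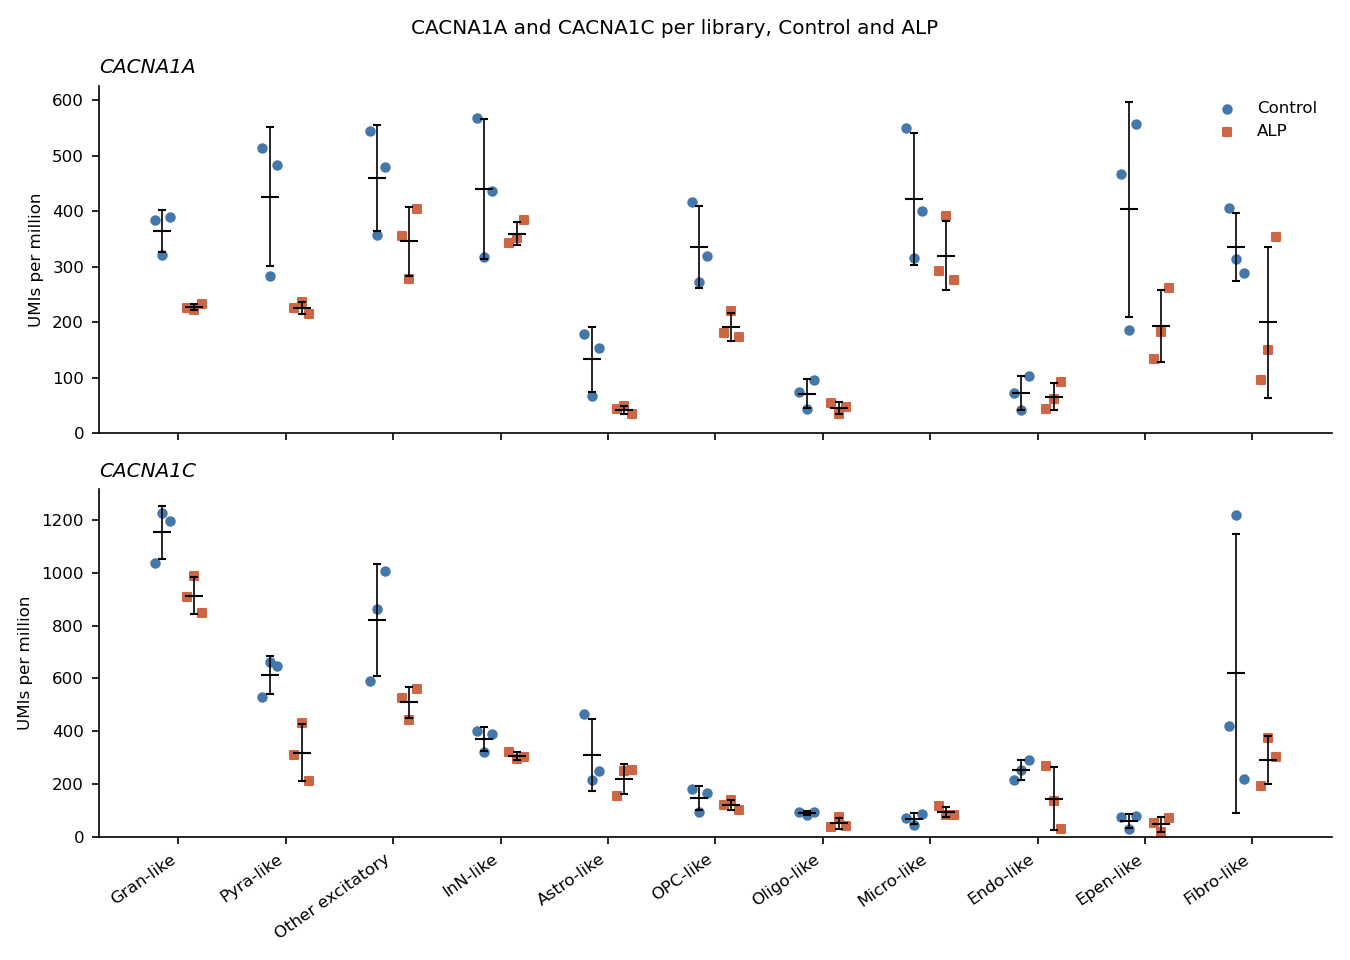
CACNA1A and CACNA1C (CPM) in control and ALP libraries, by class. Each point is 1 library, and the horizontal lines with bars are group means and SDs (n = 3). The CACNA1A points of ALP lie below those of the controls without overlap in Gran-like, Pyra-like, Astro-like and OPC-like nuclei, and those of CACNA1C in Gran-like, Pyra-like, Other excitatory and Oligo-like nuclei.

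CACNA1C was not called in any class, and its libraries did not overlap in 4, with ALP lower in each. Of all features tested, 12.2% in Gran-like, 16.9% in Pyra-like, 13.5% in Other excitatory and 13.5% in Oligo-like nuclei were lower in ALP without overlap. Pyra-like nuclei had 531, 662 and 648 CPM in the controls and 312, 430.3 and 213 in ALP. The groups did not overlap, nor did they in the 4 marker lists given above for this class (log2 -0.69, SE 0.23, edgeR unadjusted p = 0.0133 and adjusted p = 0.240). Without the upper limit on genes per nucleus the log2 fold was -0.17. Oligo-like nuclei had 92.5, 80.9 and 93.9 CPM against 38.9, 76.0 and 41.6, with ALP 2 close to the controls (log2 -0.70, SE 0.24, edgeR adjusted p = 0.117), and the difference was called without ALP 2 (log2 -1.03, adjusted p = 0.0180). Other excitatory nuclei had 592, 862 and 1009 CPM against 527, 443 and 558 (log2 -0.58, edgeR adjusted p = 0.372) and Gran-like nuclei 1038, 1225 and 1197 against 907, 988 and 847 (log2 -0.27, edgeR adjusted p = 0.349). In both the groups did not overlap. Most Other excitatory nuclei of Control 2 (37 of 49) and Control 3 (163 of 164) were in 1 cluster. Those of Control 1, ALP 1 and ALP 2 were mostly in the other cluster, and those of ALP 3 in both. The part of this makeup was not tested.

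CACNA2D3 in Oligo-like nuclei was the other called pair. The controls were at 144, 87.7 and 160.2 CPM and the ALP libraries at 45.9, 81.9 and 42.5. Control 2, with 186 Oligo-like nuclei, and ALP 2 were close to each other, and the other libraries were far apart. The 2.25-fold decrease (log2 -1.17, SE 0.26) had an edgeR adjusted p of 0.0309 in a class where 2.88% of 11769 features were called lower (339 lower and 218 higher, against 424 and 150 without TMM factors). DESeq2 called it too (adjusted p = 6.53e-03), while the call was lost without Control 1 (0.0736), Control 3 (0.141), ALP 1 (0.160) or ALP 3 (0.194), and without the upper limit on genes per nucleus (0.0586). Oligo-like clusters were unevenly held by the groups. CACNA2D3 was lower in ALP without overlap in 4 of the 6 clusters that all libraries filled (means of 141 and 59.3, 120.4 and 64.9, 156 and 67.7, and 134 and 59.5 CPM) and lower with overlap in the other 2 (82.8 and 40.2, 123 and 66.4), while 7.0% of the tests of all features over these 6 clusters were lower without overlap. The clusters are parts of the same nuclei and libraries, so these values are not independent of the call. Control 2 had only 26 CACNA2D3 UMIs in all its Oligo-like nuclei. Markers of OPCs were lower in ALP (1049 to 1502 against 876 to 1044 CPM) as were those of ependymal cells (58.6 to 67.4 against 36.99 to 44.1), and markers of oligodendrocytes overlapped. Their part was not tested. The thinned share with a CACNA2D3 UMI was 11.0% ± 3.05 in controls and 5.20% ± 1.75 in ALP. Set beside the 7 neuron genes as a percentage of Pyra-like nuclei, CACNA2D3 was above their range in control nuclei (20.3%) and within it in ALP (9.72%). Other excitatory nuclei were the highest class in the controls (731 CPM against 643 in Pyra-like nuclei). Against them the control percentage is within the range too. The part of neuronal RNA in Oligo-like nuclei was not tested.

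**Figure D4:**
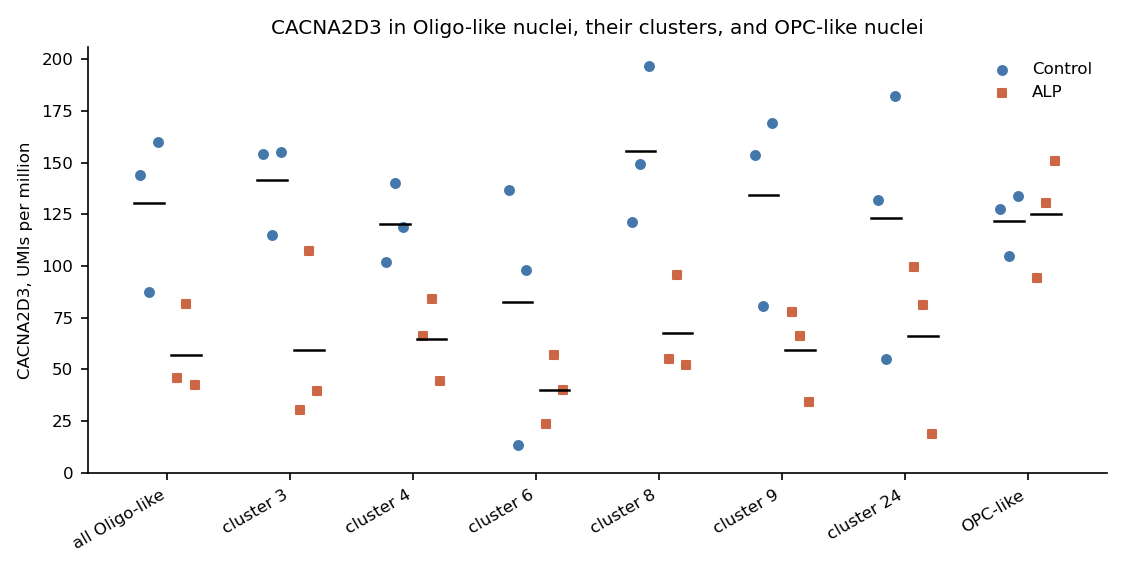
CACNA2D3 (vertical axis, CPM) in all Oligo-like nuclei, in the 6 Oligo-like clusters filled by every library, and in OPC-like nuclei. Each point is 1 control or ALP library, and the short lines are group means. ALP libraries lie below all controls in clusters 3, 4, 8 and 9 and overlap with them in clusters 6 and 24.

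In OPC-like nuclei CACNA2D3 did not show this difference, and the difference of the effects itself was tested with the library as a block. The ALP effect on CACNA2D3 was more negative in Oligo-like than in OPC-like nuclei by 1.21 on the log2 scale (SE 0.23, edgeR adjusted p = 0.0409), a call that 0.0690% of 13037 features reached. It was the only call among 39 differences tested for the 10 genes, and it was lost in 6 of 14 alternative settings. Some uncalled differences had an unadjusted p under 0.05. In Gran-like against Pyra-like nuclei (0.379% called) these were CACNA1H (-1.06), CACNA1G (-1.48) and CACNA1E (-0.58), with edgeR adjusted p = 0.138, 0.234 and 0.344. In Gran-like against InN-like nuclei (0.0833% called) they were CACNA1H (-1.27), CACNA1A (-0.47) and CACNA2D3 (-0.45), with adjusted p = 0.544, 0.644 and 0.761. In Pyra-like against InN-like nuclei (0.0365% called) they were CACNA1G (0.87) and CACNA1E (0.56), with adjusted p = 0.540 and 0.554. The share of all features at that unadjusted p is not given here. CACNA1G in Gran-like and CACNA1H in InN-like nuclei had 51 UMIs each, too few to be tested within those classes.

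The higher values in ALP were few. CACNA1G in Pyra-like nuclei was at 36.8, 38.4 and 42.5 CPM in the controls and at 63.7, 43.0 and 62.5 in ALP, the only tested pair with every ALP library above every control library, as for 4.57% of features in this class (log2 0.85, SE 0.29, edgeR unadjusted p = 0.0134 and adjusted p = 0.241). Without the upper limit on genes per nucleus it was 0.07. CACNA1E in Micro-like nuclei was at 18.2, 60.3 and 27.1 CPM in the controls and at 99.5, 57.0 and 50.6 in ALP, from 78 UMIs in all, and overlapped (log2 1.42, SE 0.46, edgeR unadjusted p = 6.52e-03 and adjusted p = 0.186). As a percentage of its highest neuronal class it was at 5.89% in controls and 10.5% in ALP. The median of the neuron genes there was 13.2% and 20.7%. In Micro-like nuclei markers of microglia (2802 to 4461 against 4567 to 5178 CPM) and T cells were higher in ALP without overlap. Those of oligodendrocytes (1734 to 1887 against 1476 to 1614) and fibroblasts were lower, and the part of these was not tested.

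Some pairs did not overlap without a low p. CACNA2D1 was at 265, 263 and 239 CPM in control and 183, 230.3 and 181 in ALP Astro-like nuclei (log2 -0.23, edgeR adjusted p = 0.499), and at 126, 125 and 112 against 101, 111 and 84.6 in Oligo-like nuclei (-0.20, edgeR adjusted p = 0.563). CACNA1D in Other excitatory nuclei was at 229, 226 and 289 against 219, 214 and 215 (log2 -0.10, edgeR adjusted p = 0.873), and the sign of that fold turned without Control 3 (0.07). CACNA1B was below 0 in the 7 classes tested, from -1.01 in Astro-like to -0.001 in Pyra-like nuclei, with no unadjusted p under 0.05, and CACNA1I had none either in its 4 classes.

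**Figure D5:**
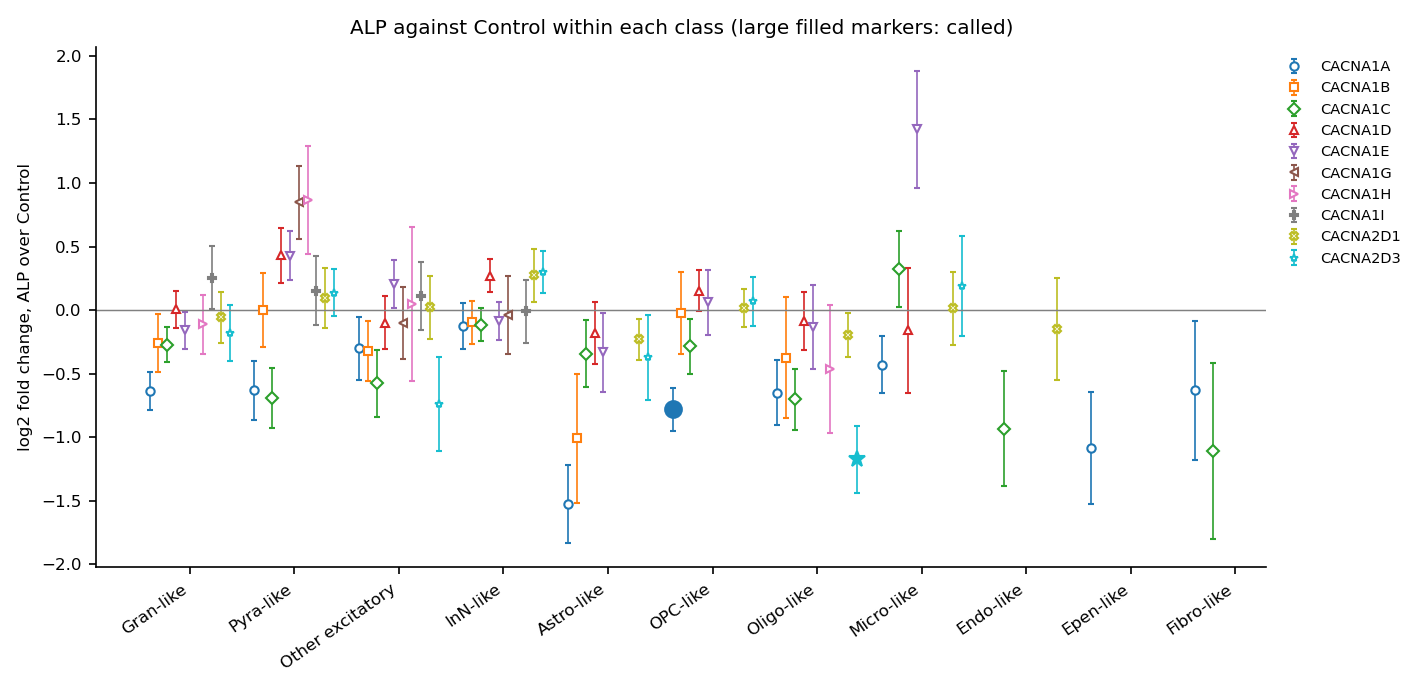
Log2 fold of ALP over control (vertical axis) in each class (horizontal axis), with 1 marker per subunit gene tested there. Bars are standard errors derived from the log2 fold and the F statistic of the edgeR test. The large filled markers are the called pairs, CACNA1A in OPC-like (-0.78) and CACNA2D3 in Oligo-like nuclei (-1.17). CACNA1A lies below 0 in all 10 classes tested.

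By class, the median log2 fold of the subunit genes tested was -0.42 for 8 genes in Oligo-like, -0.34 for 7 in Astro-like, -0.16 for 9 in Gran-like, -0.10 for 10 in Other excitatory, -0.04 for 9 in InN-like, 0.02 for 7 in OPC-like, 0.10 for 6 in Micro-like and 0.15 for 10 in Pyra-like nuclei. The median of all features was between -0.01 and 0.01 in these classes. Without TMM factors the median of all features moved to -0.28 in Pyra-like, -0.17 in Astro-like, -0.16 in InN-like, -0.14 in Other excitatory, -0.12 in Epen-like and -0.11 in Oligo-like nuclei, so that folds on the plain CPM scale lie lower by about that much.

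Summed over all nuclei of a library, the subunits had another pattern. CACNA1E was at 198, 188 and 154 CPM in the controls and at 290, 264 and 259 in ALP (log2 0.80, SE 0.15, edgeR adjusted p = 0.0679), and the T-type genes CACNA1G (0.96, adjusted p = 0.0866), CACNA1H (1.05, 0.0879) and CACNA1I (0.59, 0.132), as well as CACNA1D (0.36, 0.166), also had an unadjusted p under 0.05, each higher in ALP. None of the 10 was called by edgeR, nor any of the 22749 features tested (0.0% called, 23.4% with an unadjusted p under 0.05). DESeq2 called CACNA1E, CACNA1G and CACNA1H, and the share of all features that it called in these sums is not given here. CACNA1E was called by edgeR without Control 2, and CACNA1H without ALP 2. In such sums more nuclei of a type and more RNA per nucleus cannot be told apart, and Pyra-like nuclei, where CACNA1E and CACNA1G are highest, were 5.41%, 6.94% and 1.1998% of the nuclei in the controls and 10.9%, 9.30% and 8.38% in ALP. CACNA1A (328, 232 and 280.5 against 220.2, 202 and 199 CPM) and CACNA1C (448, 366 and 377 against 332, 360.3 and 301) were lower without overlap (22.4% of features), with log2 folds of -0.22 (edgeR adjusted p = 0.422) and -0.05 (edgeR adjusted p = 0.866).

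Other genes of the calcium system were taken from 3 lists of 64 genes, of which 57 were among the features. Over 282 pairs of gene and class tested 0 were called by edgeR (1.11% of all tests) and 1 by DESeq2, an alternative added after seeing the data, and 12 lower and 10 higher pairs had an unadjusted p under 0.05, 7.80% of the pairs against 16.6% of all tests. Among the other genes named as channel subunits (47 pairs, 3 lower and 1 higher) the smallest p was that of CACNB2 in Other excitatory nuclei. CACNB2 encodes a cytoplasmic β subunit that assists trafficking of the pore. It was at 50.8, 125 and 112 CPM in the controls and 24.9, 36.9 and 18.7 in ALP (log2 -1.66, SE 0.39, edgeR unadjusted p = 1.83e-03 and adjusted p = 0.158). DESeq2 called this pair (adjusted p = 0.0483), and edgeR called it without Control 1 (log2 -1.99, adjusted p = 6.16e-03). In these nuclei the markers of inhibitory neurons (61.3 to 1314 CPM, with Control 2 highest, against 25.4 to 46.6), oligodendrocytes (247 to 540.2 against 135 to 180) and endothelium (59.5 to 95.8 against 33.6 to 49.4) were also lower in ALP without overlap, and their part was not tested. Most such nuclei of Control 1 (112 of 143), ALP 1 (160 of 209) and ALP 2 (154 of 210) were in the HS3ST4 and COL8A1 cluster. Those of Control 2 (37 of 49) and Control 3 (163 of 164) were mostly in the other cluster, and those of ALP 3 in both (70 and 81). Without Control 1 the controls were thus mostly from the other cluster, and the part of this makeup was not tested. Among the partners of the channel at the synapse (56 pairs, 0 lower and 5 higher) it was RIMS2, an active zone scaffold, in Micro-like nuclei, at 83.3, 60.3 and 108 against 220, 114 and 175 CPM (log2 0.89, edgeR unadjusted p = 8.91e-03). Among calcium stores, pumps and effectors (179 pairs, 9 lower and 4 higher) it was CAMK2D, a calmodulin-dependent kinase, in Pyra-like nuclei, at 233, 175 and 223 against 286, 309 and 259 CPM (log2 0.71, edgeR unadjusted p = 3.97e-03). In each of the 3 the groups did not overlap. The marker lists given above for Micro-like and Pyra-like nuclei did not overlap either, and their part was not tested. Of the β subunits CACNB4 was highest in InN-like nuclei (426 ± 35.2 CPM) and CACNB2 in Gran-like nuclei (97.9 ± 31.5). CACNG4, which is listed here by its name as a γ subunit, was highest in OPC-like nuclei (105 ± 18.5).

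The genes most like each subunit were ranked by Pearson's r of log2(CPM + 1) of the class means over the 11 classes, among 8744 named genes. CACNA1I was closest to the potassium channel gene KCNK10 (r = 0.989), CLVS2 and KIAA1549L. CACNA1B was closest to KSR2 (0.980), NRXN3 and PTPRN, and CACNA2D3 to KSR2 (0.964), ATP6V0A1 and PAK5. CACNA1E was closest to DPYD (0.966), ACTR3B and CAMK2B, CACNA1D to AMPH (0.965), CSRNP3 and CA10, CACNA1H to RANGAP1 (0.958), TBR1 and GFOD1, CACNA1G to NKIRAS1 (0.949), SLC6A7 and ADAM11, CACNA2D1 to NTRK3 (0.940), PCDHA1 and GLRB, and CACNA1C to PRKCE (0.937), OLFML2B and ACD. CACNA1A had the loosest neighbours, RRAGD (0.914), NANOS3 and LORF2. Of the 30 genes, 10 were also in the first 3 by Spearman's rho. Among the subunits themselves CACNA1B and CACNA2D3 followed each other (r = 0.948) and CACNA1A and CACNA1H did so least (0.210). The points are the same 11 classes from the same 6 libraries, and the values are a description without a test.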

How the data were processed

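Nuclei isolated from frozen hippocampus were sequenced as 10x Genomics droplet libraries, 3 from ALP and 3 from control animals. The authors deposited raw UMI counts per feature and barcode, made with Cell Ranger 3.1.0 per the submitters' processing notes and the study's methods, on the TreeshrewDB genome. The file headers name a later Cell Ranger release than those sources, and which of them made the counts was not settled. The build and the use of strand and introns are not given in the sources used here.

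Filters were taken from the study's methods: of 37603 barcodes, 28234 had at least 200 and fewer than 2500 genes and no more than 5% of UMIs from mitochondria, and these were used, 1 more than the study states. A further 5 nuclei with exactly 2500 genes, which the wording of the methods would keep, were left out. Counts scaled to 10000 were clustered with scanpy 1.11.5 and leidenalg 0.10.2 on 2000 variable genes (without calcium channel genes), 30 components, 20 neighbours and resolution 2. A cluster was named where at least 3 listed markers were found, put in Other excitatory by its share of nuclei with CAMK2A (30%) and SLC17A7 (20%), or left unnamed, as where over 10% of its nuclei were marked as doublets, and doublets were otherwise kept. The study's labels per nucleus were not used here. UMIs were summed per library and class (at least 10 nuclei) and tested with edgeR 4.0.16 (quasi-likelihood, TMM, minimum count 10), instead of the mixed model over nuclei that the study used, since nuclei of 1 animal are not replicates. DESeq2 1.42.0, other scalings and filters, other clusterings, a replicate block and leaving out each library were the alternatives. Scripts were tested on simulated data. Deviations of same-numbered libraries correlated by -0.113 to 0.217, with all 3 above 0.1 in 0 of 9 sums, so the numbers were not taken as pairs.

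The members and gene lists were chosen with earlier results of these data known. All 10 genes are named. A pair of gene and class is given with its test where the unadjusted p was under 0.05 or the groups did not overlap, and of each further list the gene with the smallest p. Intervals cover counting error only. Precision is limited by 3 libraries per group and by the number of UMIs per sum.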

Additional observations from a re-analysis of the deposited data

Results flagged for a closer look

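The ALP effect on CACNA2D3 differed between the oligodendrocyte lineage classes by a test of the difference itself: the effect in Oligo-like minus that in OPC-like nuclei was -1.21 on the log2 scale (SE 0.23, edgeR adjusted p = 0.0409). Oligo-like libraries were at 144, 87.7 and 160.2 CPM in the controls and 45.9, 81.9 and 42.5 in ALP. The call was lost in 6 of 14 alternatives. These were DESeq2, no library block, no upper limit on genes per nucleus, and leaving out Control 3, ALP 1 or ALP 3. It was kept without Control 1 (-1.18), Control 2 (-1.26) and ALP 2 (-1.48).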

How the results depend on the processing

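Of 721 recomputed values for 52 single results, 649 kept their direction and side of the threshold, 33 lost the call, 28 gained it and 11 changed sign. The 2 calls of ALP against control became 4 without the filter on low counts, 4 without TMM factors (added after seeing the data), 1 without marked doublets, 0 without the upper limit on genes per nucleus, 0 with the replicate block, and 0 to 4 with 1 library left out. The replicate block gave an adjusted p of 0.126 for CACNA1A in OPC-like and 0.0629 for CACNA2D3 in Oligo-like nuclei in edgeR, and the samples share only a number. The 1 call between class effects became 0 with DESeq2, 2 without the filter on low counts, 0 without the library as a block, 0 without the upper limit, and 0 to 2 with 1 library left out. Over all nuclei the 0 calls became 3 with DESeq2, 3 without the filter and 0 to 1 with 1 library left out. The shares of all features called over all nuclei in these settings are not given here. The 2 highest classes called became 4 without the upper limit, 1 without TMM and 0 to 3 with 1 library left out. Of the other calcium genes, 0 calls became 1 with DESeq2, 3 without the filter (CACNB2 in 2 classes and REM2) and 0 to 4 with 1 library left out, the 4 without Control 1. The median share with a UMI in the highest class, 30.2%, was 16.99% at 500 UMIs and 69.9% without thinning, and 10 of the 30 alike genes were shared by Spearman's rho. The 6 calls between interneuron subclasses were 4 with DESeq2 and 5 to 6 with 1 library left out. Sign changes were seen for uncalled differences: CACNA1D in Other excitatory nuclei (0.034 without the filter, 0.087 without the upper limit, -0.17 to 0.066 with 1 library left out), CACNA1A between Other excitatory and InN-like nuclei (0.16 without the upper limit, 0.0062 without TMM, -0.090 to 0.012 with 1 library left out), CACNA1H between Gran-like and Pyra-like nuclei (0.047 without TMM, -0.38 to 0.052 with 1 library left out), CACNA2D3 between Pyra-like and Other excitatory nuclei (-0.32 without the upper limit) and CACNA1E between interneuron subclasses (-0.080 to 0.18 with 1 library left out). The cause of these changes was not tested.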

Other observations

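Features named as antisense to the subunit genes were also counted. Whether the counting used strand is not given in the sources used here, and without strand reads of a gene and of its antisense partner cannot be told apart. The 8 features named antisense to CACNA2D3 summed to 13.7, 6.74 and 24.2 CPM in control and 5.10, 5.39 and 4.16 CPM in ALP Oligo-like nuclei. The 6 named antisense to CACNA1A summed to 30.4, 39.96 and 39.95 CPM in control and 34.1, 37.01 and 29.6 CPM in ALP OPC-like nuclei, which overlapped, with 1 feature tested and not called by edgeR. They summed to 13.8, 8.06 and 16.9 CPM in control and 3.97, 8.58 and 0 CPM in ALP Astro-like nuclei. Of the features antisense to CACNA2D3, 1 passed the filter on low counts in Oligo-like nuclei and was not called by edgeR, and of those antisense to CACNA1A 0 passed it in Astro-like nuclei.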
